A study of Rattus norvegicus with 138 samples.

Results

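The transcripts of 9 matricellular and CCN genes were followed through volumetric muscle loss (VML) of the rat tibialis anterior (TA) muscle: Postn, Cthrc1, Tnc, Sparc, Thbs1, Thbs2, Thbs4, Ctgf and Cyr61. They were taken by symbol from the 16181 gene symbols of one table of TPM values, length-corrected shares of a library's transcripts on a fixed scale, and all 9 were present and passed the filter on low values. The members were chosen by their levels in injured against uninjured muscle, so that difference is described here without a test. Changes of the 9 transcripts from day to day, and differences with a minced muscle graft or with running, are other contrasts and were tested. The injured muscles used there are part of the injured muscle behind the choice, so these p-values are no independent evidence.

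All animals were Lewis rats, given in the study's methods as inbred males of about 4 months. A full-thickness defect was cut with a 6 mm punch in the middle of the left TA. Muscles were taken 3, 7, 14 or 28 days post injury (DPI) from rats labelled NoRepair or MMG (minced muscle graft, cut from the rat's own excised tissue) and NoRun or Run. Running is a label only, with its form and dose not given in the sources used here. The groups comprised 76 injured muscles in 16 groups of 2 to 8, 34 contralateral muscles in 14 groups of 2 to 6, and 4 control muscles. The controls were both legs of 2 rats labelled Sham at day 0 and called unoperated in the study's results. The control rats carry another series number than every operated rat, so control against operated muscle and that numbering cannot be told apart. With both legs of 2 rats the controls hold less than 4 independent values.

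Matricellular proteins are secreted into the extracellular matrix, where they act on cells and on matrix assembly more than as load-bearing fibers. In resting adult muscle most of them are scarce, and they are known for appearing when tissue is wounded. Postn (periostin), Cthrc1 (collagen triple helix repeat containing 1) and Tnc (tenascin C) are products of activated fibroblasts and developing connective tissue. Sparc (osteonectin) binds collagen, and the thrombospondins Thbs1, Thbs2 and Thbs4 bind matrix proteins and growth factors, Thbs1 being an activator of latent TGF-beta and Thbs4 a protein of tendon and muscle attachment. Ctgf (Ccn2) and Cyr61 (Ccn1) are CCN family proteins and standard readouts of the mechanically controlled coactivator YAP, which works through TEAD transcription factors.

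Because Ctgf and Cyr61 are read as YAP and TEAD targets, the 250 bases before the annotated start were searched for GGAATG, the core letters bound by TEAD proteins, on both strands. Promoters came from RefSeq on build GRCr8, not the build on which the reads were quantified, and 7 of the 9 genes had an entry (Cthrc1 and Thbs2 did not). GGAATG occurred 3 times before Ctgf, with first bases 166, 101 and 92 bases ahead of the start. It occurred once before Cyr61 at 113, Thbs1 at 47, Sparc at 33 and Thbs4 at 178, and not in the windows of Postn and Tnc. Of 33469 rat promoters of the same length, 12.1% held it. Below, capitals mark GGAATG or its reverse complement CATTCC, and each sequence runs 5′ to 3′ on the gene's own strand. Ctgf and Cyr61 are shown as the CCN pair, Thbs1 as the thrombospondin that was highest at 3 DPI, and Postn as a gene with no match.
Ctgf, chr1:22624615-22624864, minus strand: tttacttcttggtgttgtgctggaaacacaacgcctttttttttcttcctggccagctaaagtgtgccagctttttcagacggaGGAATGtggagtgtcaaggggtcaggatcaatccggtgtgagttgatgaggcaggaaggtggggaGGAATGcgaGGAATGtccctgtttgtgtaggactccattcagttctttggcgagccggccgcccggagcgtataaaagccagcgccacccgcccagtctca
Cyr61, chr2:237225690-237225939, minus strand: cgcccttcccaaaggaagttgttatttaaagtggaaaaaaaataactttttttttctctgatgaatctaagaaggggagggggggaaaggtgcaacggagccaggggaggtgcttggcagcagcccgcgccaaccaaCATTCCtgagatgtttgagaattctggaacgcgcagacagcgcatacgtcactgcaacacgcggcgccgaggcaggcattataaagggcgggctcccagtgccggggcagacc
Thbs1, chr3:125510000-125510249, plus strand: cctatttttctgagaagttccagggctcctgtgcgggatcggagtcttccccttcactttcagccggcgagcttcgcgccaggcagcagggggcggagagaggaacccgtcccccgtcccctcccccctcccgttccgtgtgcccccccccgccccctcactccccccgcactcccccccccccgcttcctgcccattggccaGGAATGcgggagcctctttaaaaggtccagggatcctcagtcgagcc
Postn, chr2:140677811-140678060, plus strand: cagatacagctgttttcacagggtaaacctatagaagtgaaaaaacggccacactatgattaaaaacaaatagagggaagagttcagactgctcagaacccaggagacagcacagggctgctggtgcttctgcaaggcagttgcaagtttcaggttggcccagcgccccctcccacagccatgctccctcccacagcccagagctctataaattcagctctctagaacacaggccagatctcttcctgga
A match in these letters is a description of the sequence and not a measured site.

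The table gives TPM and no read counts, so how deeply each library was sequenced cannot be told from it and the values carry no counting interval. Of 138 libraries, 9 could not be placed because their labels conflict, and 13 libraries with 901 to 5712 symbols above 1 TPM were set aside, against 7866 to 10948 in the libraries kept. Of the 13, 8 came from running rats. Injured muscle also differed from uninjured muscle across much of the transcriptome, with a median difference over all 11328 tested genes between 0.52 and 0.96 on the log2 scale against control. A rescaling by size factors lowered it to between 0.02 and 0.09, so every injured difference below stands on that shift.

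In injured, unrepaired muscle of rats that did not run, all 9 transcripts stood above control at 3 DPI and 8 of 9 at 7, 14 and 28 DPI. The rule was an adjusted p under 0.05 (limma on log2(TPM + 1), Benjamini-Hochberg over all tested genes) and a log2 difference beyond 1. The same rule called 48.3%, 45.6%, 25.0% and 21.1% of all tested genes higher at these times. How many of all genes lay wholly above the controls was not counted. Since the contrast chose the members, nothing is read from their count or from their lack of overlap with control. Cyr61 was the member not called after 3 DPI. More cells of a type and more RNA per cell cannot be told apart in whole muscle.

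**Figure D1:**
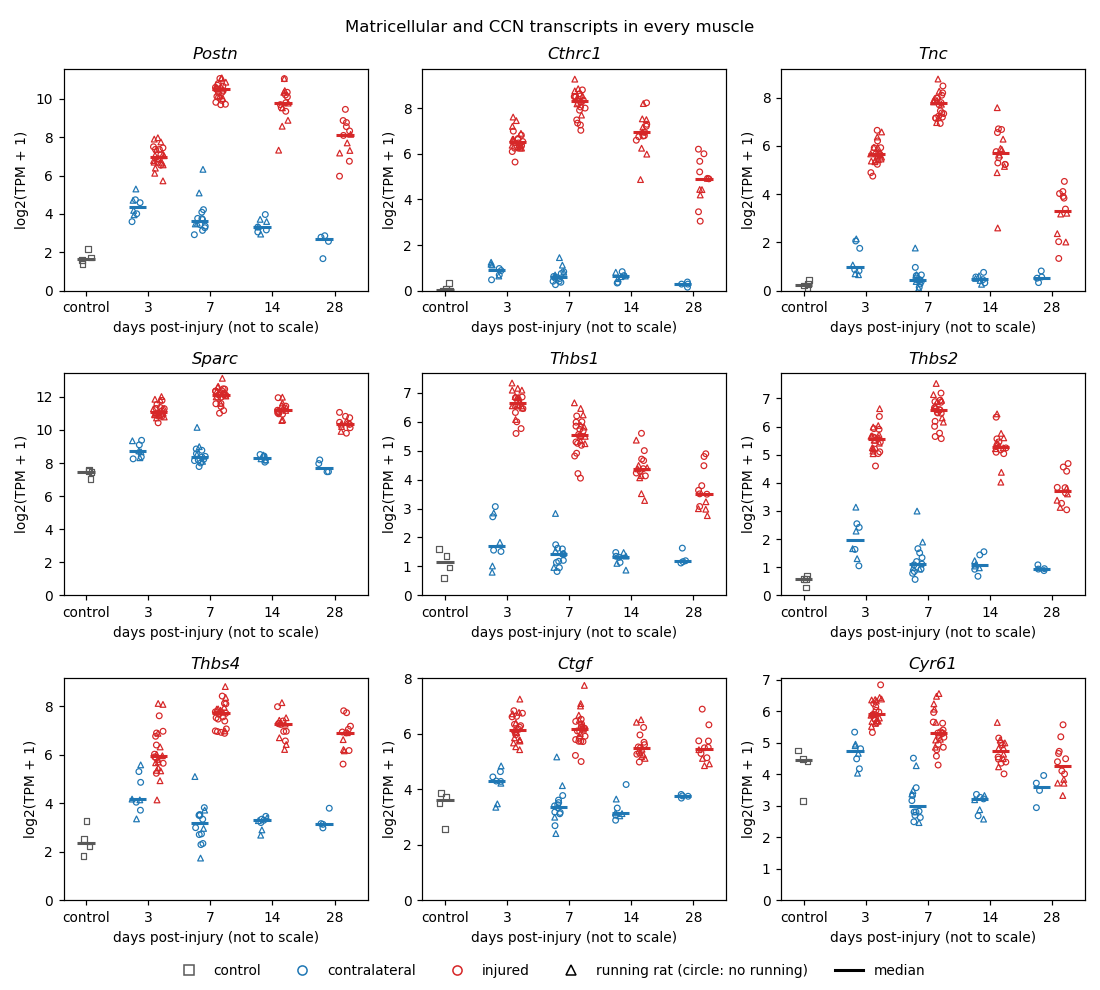
Level of each transcript in every muscle, as log2(TPM + 1), by days post injury. Squares are the 4 control muscles. Blue symbols are contralateral and red symbols injured muscles of all repair arms, triangles are rats labelled Run, and bars are medians. Injured muscles lay above every control muscle for all genes except Cyr61, of which 2 of 12 did so at 28 DPI. The members were chosen by this contrast.

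Periostin, a collagen-binding protein of healing connective tissue, had the largest difference of the 9 on the log2(TPM + 1) scale from 7 DPI on. Postn was at 1.60, 2.05, 2.31 and 3.55 TPM in the 4 control muscles. In unrepaired muscle without running it was at 92.4, 115 and 164 TPM after 3 days, and its lowest, median and highest of 8 muscles at 7 DPI were 832, 1206 and 2146 TPM. Every injured muscle thus lay far above every control, from which nothing is read since that contrast chose the members. The 7 DPI muscles lay above all those of 3 DPI. It was at 655, 747, 834 and 1103 TPM at 14 DPI and at 107, 273, 321 and 436 TPM at 28 DPI. The log2 difference from control was 5.20 ± 0.51 (SE), 8.51 ± 0.41, 7.95 ± 0.47 and 6.26 ± 0.47 at the 4 times.

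Cthrc1, a secreted protein of activated fibroblasts, was close to absent from control muscle, at 0, 0, 0.07 and 0.27 TPM. In the same unrepaired group it was at 48.9, 88.01 and 91.9 TPM at 3 DPI, and at 130, 260 and 445 TPM as lowest, median and highest of 8 muscles at 7 DPI. The groups did not overlap, and at 28 DPI the 4 muscles still held 9.99, 28.9, 29.3 and 72.7 TPM. Its differences from control were 6.11 ± 0.43, 7.79 ± 0.35, 6.74 ± 0.40 and 4.76 ± 0.40 on the log2(TPM + 1) scale, which understates the ratio for so low a baseline.

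Tenascin C, a large hexameric protein of provisional matrix, followed the same course with a faster return. Tnc was between 0.09 and 0.36 TPM in controls, at 25.8, 49.1 and 72.7 TPM at 3 DPI, and at 121, 147 and 221 TPM as lowest, median and highest at 7 DPI. By 14 DPI it was at 36.4, 36.6, 38.1 and 53.1 TPM, and by 28 DPI at 3.08, 9.41, 15.2 and 16.2 TPM, below every muscle of the earlier days but above every control. The log2 differences were 5.27 ± 0.47 at 3 DPI, 7.05 ± 0.38 at 7 DPI and 3.12 ± 0.43 at 28 DPI.

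Sparc was the most abundant of the 9 transcripts in every group. It was already at 131, 174, 180 and 188 TPM in control muscle. It was at 1380, 2271 and 2500.3 TPM at 3 DPI and at a median of 4199 TPM (2061 to 5727, n = 8) at 7 DPI. The difference was smaller than for Postn, Cthrc1 and Tnc, at 3.57 ± 0.33, 4.45 ± 0.26, 3.71 ± 0.30 and 3.01 ± 0.30. At 28 DPI the lowest of the 4 muscles, at 1121 TPM, was still above the highest control.

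The 3 thrombospondins differed among themselves in time. Thbs1, found in platelets and wound matrix, was at 0.51 to 2.02 TPM in controls and highest at 3 DPI, at 47.3, 62.8 and 105 TPM. Its median was 32.2 TPM (15.6 to 56.6) at 7 DPI, and its range was 10.3 to 26.8 TPM at 28 DPI. Thbs2, an antagonist of vessel growth that also shapes collagen fibrils, was at 0.21 to 0.60 TPM in controls, 23.2 to 47.8 TPM at 3 DPI and a median of 91.7 TPM (46.6 to 145) at 7 DPI. Thbs4 stood apart by lasting: its 4 muscles at 28 DPI, at 70.9, 118, 121 and 131 TPM, lay within the range of 3 to 7 DPI and far above the controls at 2.51 to 8.58 TPM. The log2 difference of Thbs1 went from 4.98 ± 0.39 at 3 DPI to 2.73 ± 0.36 at 28 DPI. That of Thbs4 was 3.40 ± 0.53 after 3 days and still 4.31 ± 0.49 after 28, and that of Thbs2 was highest, at 5.78 ± 0.32 at 7 DPI.

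Of the CCN pair, Ctgf, a profibrotic matrix protein that works alongside TGF-beta, was at 4.94, 10.4, 12.3 and 13.5 TPM in controls and at 61.7, 77.6 and 113 TPM at 3 DPI. It was at 38.2, 52.5, 52.7 and 79.3 TPM at 28 DPI, all above the controls, and its log2 differences lay between 2.23 ± 0.36 and 2.95 ± 0.38. Cyr61, its early-response relative, was the least changed member: 7.93, 20.1, 21.5 and 25.9 TPM in controls, 48.5, 58.5 and 74.9 TPM at 3 DPI, and 20.1, 24.3, 25.5 and 35.5 TPM at 28 DPI. Across all arms 24 of 24, 22 of 24, 8 of 16 and 2 of 12 injured muscles were above every control at the 4 times. Its difference from control was 1.72 ± 0.36 at 3 DPI and was not called at 7, 14 and 28 DPI (0.84 ± 0.29, 0.34 ± 0.34 and 0.54 ± 0.34). With size factors the 3 DPI value was 0.62 and not called, and the later ones turned below 0 (-0.20, -0.32 and -0.10), so no direction can be given for Cyr61 against control after 3 DPI.

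Markers of several cell types also differed between injured and control muscle, each with a course of its own. The sums given here pool the injured muscles of all repair and running arms. The summed level of 8 fibroblast markers (Pdgfra, Col1a1, Col1a2, Col3a1, Dcn, Lum, Dpt, Fbln1) was 87.7 to 263 TPM in control muscle and 6833 to 29115 TPM in injured muscle at 7 DPI, and all 8 were called higher at every day. The sum of 8 leukocyte markers went from 20.7 to 43.0 TPM in controls to 3859.5 to 7147 TPM at 3 DPI and 273 to 1341 TPM at 28 DPI. Pf4, the one platelet marker that passed the filter (Ppbp and Gp9 were under 1 TPM), differed by 5.72 at 3 DPI. Markers of fast muscle fibers summed to 12082 to 44589 TPM at 3 DPI against 111870.0 to 152466 TPM in controls. Tendon markers summed to 29.4 to 45.0 TPM in controls, 205 to 582 TPM at 7 DPI and a median of 184 TPM at 28 DPI. Endothelial and smooth muscle markers were at 161 to 389 and 282 to 1187 TPM at 7 DPI against 43.3 to 85.4 and 49.6 to 82.9 TPM. Schwann cell markers were at a median of 8.98 TPM at 3 DPI and 21.6 TPM at 28 DPI against 9.15 TPM. The part of these shifts in cell markers in the members' values was not tested.

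The rats with both muscles kept give the comparison within an animal. In 34 of 34 such rats, across both arms of repair and running, the injured muscle exceeded the contralateral muscle for all 9 genes. Injured against uninjured muscle chose the members, and the share of all genes so placed was not counted. Nothing is therefore read from that count. The median ratio of TPM was 257 for Cthrc1, 162 for Tnc, 61.4 for Postn, 37.7 for Thbs2, 23.6 for Thbs1, 14.8 for Thbs4, 7.79 for Sparc, 5.58 for Ctgf and 3.64 for Cyr61. The lowest single ratio was 1.06, for Thbs4 in a rat at 3 DPI, where contralateral Thbs4 reached 46.7 TPM and 18 of 24 injured muscles lay above every contralateral muscle. Postn ratios at 3 DPI, 3.44 to 14.7, lay below those of 7 DPI, 27.2 to 185.

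**Figure D2:**
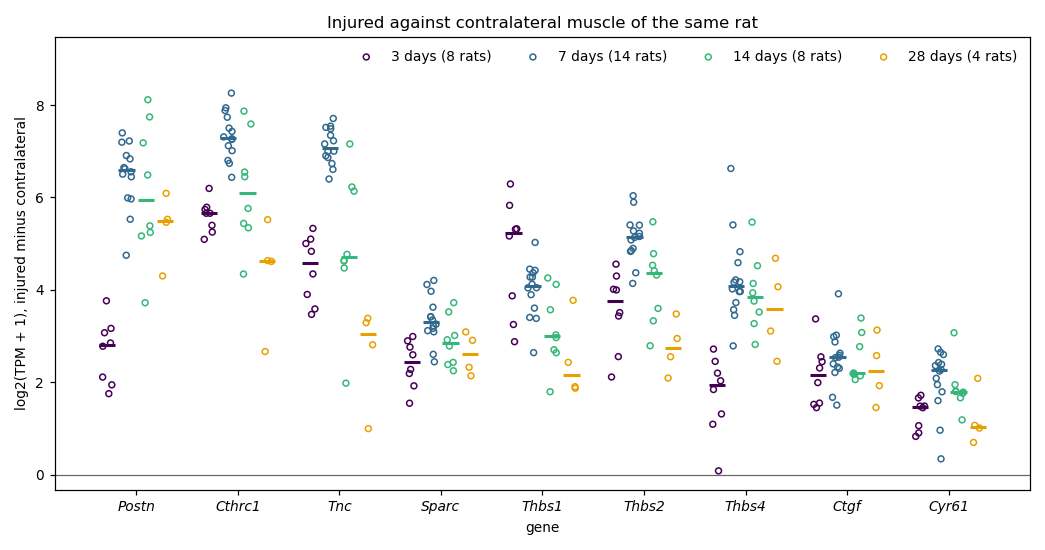
Injured minus contralateral level, in log2(TPM + 1), for each rat with both muscles, by gene and days post injury; open circles are rats (8, 14, 8 and 4 at 3, 7, 14 and 28 DPI) and bars are medians. All values are above 0, and those of Cthrc1 and Tnc at 7 DPI are the highest groups.

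By group, all 9 members were called higher in injured than contralateral muscle in each of 10 of 11 combinations of day and arm, and 8 of 9 in unrepaired rats without running at 28 DPI, where Cyr61 differed by 0.91 ± 0.41. Of all tested genes the rule called higher, at 3, 7, 14 and 28 DPI, 32.3%, 45.3%, 20.9% and 13.1% without repair, 37.2%, 42.9%, 25.6% and 18.8% with the graft, and, in running rats at the first 3 of these days, 35.6%, 40.0% and 24.6%. With size factors Cyr61 lay under the log2 threshold in 8 of the 11 contrasts, and Thbs4 at 3 DPI in running rats (0.99 against 1.64 ± 0.39). In unrepaired rats without running at 3 DPI, with 3 injured and 2 contralateral muscles, the calls of Thbs4 and Cyr61 rested on single muscles. Thbs4, at 1.34 ± 0.63, was 0.78 with size factors and 0.54 without contralateral replicate 2. It was also not called without injured replicate 1 or 2, without the filter, with a pseudocount of 0.1 or with the libraries of few detected symbols kept. Cyr61, at 1.17, was 0.58 without contralateral replicate 1.

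The time course sorted the genes into an early and a later set. Postn, Cthrc1, Tnc, Sparc, Thbs2 and Thbs4 had their highest group mean at 7 DPI in 4 of 4 arms, and Thbs1 had it at 3 DPI in 4 of 4 arms. Ctgf was highest at 3 DPI without running and at 7 DPI with running, and Cyr61 at 3 DPI in 3 of 4 arms and at 7 DPI in grafted running rats. What remained at 28 DPI ranged widely: 1.31 to 6.83% of the highest day's mean for Tnc, 5.44 to 13.6% for Cthrc1, 8.02 to 17.3% for Thbs2 and 10.3 to 28.5% for Postn. The shares were 5.49 to 20.5% for Thbs1, 16.4 to 43.5% for Cyr61, 22.7 to 35.4% for Sparc, 29.0 to 71.1% for Ctgf and 34.8 to 78.3% for Thbs4.

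**Figure D3:**
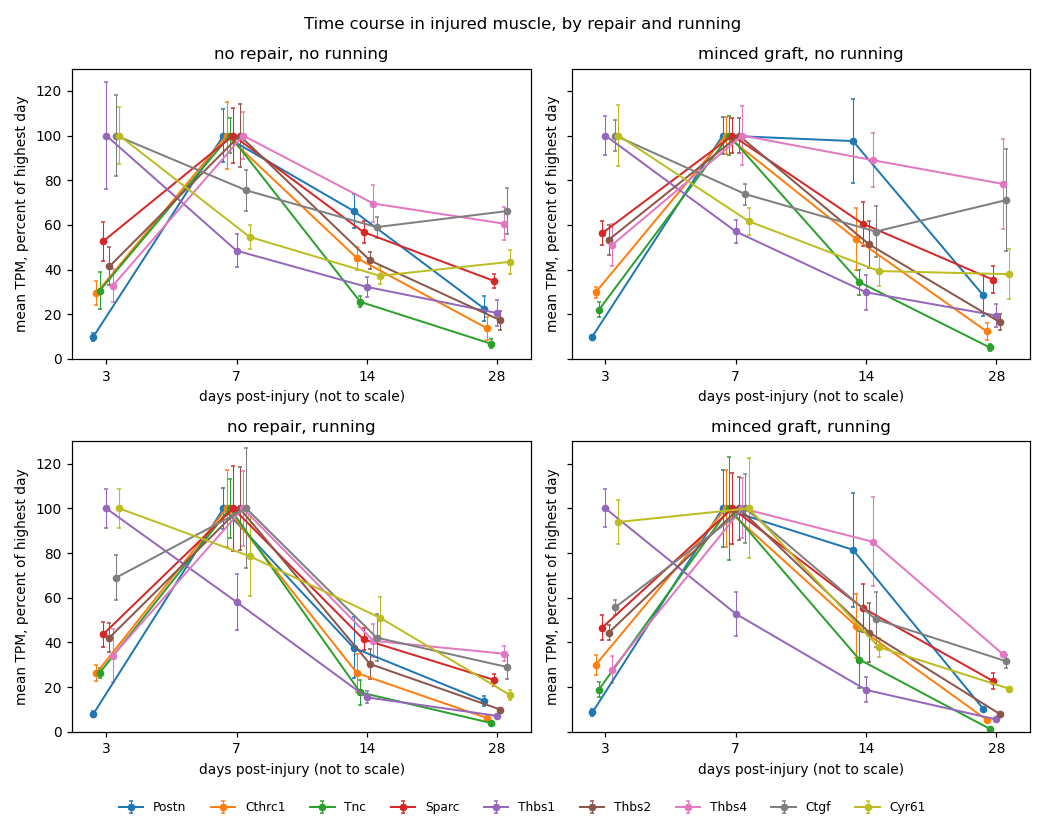
Group mean TPM in injured muscle as a percent of the same gene's highest day, for each repair and running arm, by days post injury; error bars are the standard error of 2 to 8 muscles. Of the 9 lines, 6 peak at 7 DPI in every panel, Thbs1 is highest at 3 DPI, and Tnc ends lowest at 28 DPI while Thbs4 and Ctgf end highest.

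These steps were tested in the rats that did not enter the comparison with control, the grafted rats without running and the running rats of both repair arms. Both sides of a step, and of the graft and running contrasts, are injured muscle, which is not the contrast that chose the members. The same muscles are nonetheless part of the injured muscle behind that choice, so the p-values describe the spread between these muscles and are no independent evidence. Genes chosen for high levels in injured muscle may differ from all genes in these steps for that reason alone. Nothing is thus read from the members' counts beside the shares of all genes. In grafted rats the lowest, median and highest Postn of 7 muscles at 3 DPI were 102, 135 and 181 TPM, and of 8 muscles at 7 DPI 845, 1504 and 1788 TPM, with no overlap. From 3 to 7 DPI, 4 of 9 members rose: Postn by 3.31 ± 0.34, Tnc by 2.22 ± 0.32, Cthrc1 by 1.73 ± 0.29 and Thbs4 by 1.03 ± 0.36 on the log2 scale (adjusted p = 1.3e-13, 7.38e-09, 5.54e-07 and 0.0113). Of all tested genes 2.65% rose. Thbs4 was not called with the libraries of few detected symbols kept (adjusted p = 0.0645). Sparc (0.84) and Thbs2 (0.92) were higher and Thbs1 (-0.80) and Cyr61 (-0.67) lower at an adjusted p under 0.05 but within the log2 threshold of 1.

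In running rats 6 of 9 members rose from 3 DPI (14 muscles) to 7 DPI (8 muscles), against 2.97% of all tested genes. Postn rose by 3.69 ± 0.30, Tnc by 2.11 ± 0.27, Thbs4 by 1.99 ± 0.31, Cthrc1 by 1.83 ± 0.25, Thbs2 by 1.19 ± 0.23 and Sparc by 1.14 ± 0.19, with adjusted p from 3.28e-19 to 5.53e-06. Thbs1 stood 0.89 ± 0.23 lower at 7 DPI and Ctgf 0.64 ± 0.22 higher, both at an adjusted p under 0.05 but within the threshold. With the rat number range as a covariate 4 of the 6 passed, Thbs2 (0.99) and Sparc (0.94) lying under the threshold. The same 2 lay under it with the libraries of few detected symbols kept (0.95 and 0.89). Whether the step differed between grafted and running rats was not tested.

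In running rats 7 of 9 fell between 7 and 14 DPI, where 9.31% of all genes did. Tnc fell by 2.33 ± 0.31, Cthrc1 by 1.69 ± 0.28, Thbs1 by 1.69 ± 0.26, Thbs2 by 1.53 ± 0.26, Postn by 1.12 ± 0.33, Ctgf by 1.11 ± 0.25 and Sparc by 1.06 ± 0.21 (adjusted p at most 0.00185). With size factors, or with the libraries of few detected symbols kept, 4 of the 7 passed, with Postn, Ctgf and Sparc inside the threshold. Leaving out each muscle in turn gave 5 to 8 members. Postn was at -0.84 without unrepaired replicate 1 of 14 DPI, and Ctgf at -0.95 without unrepaired replicate 3 of 7 DPI. Sparc was at -0.93 without grafted replicate 1 of 14 DPI and lost its call without other single muscles too. The running rats of 7 and of 14 DPI carry numbers from ranges that do not overlap, so within running rats this step and the number range cannot be told apart. With the range as a covariate, estimated from other groups, the same 3 lay inside the threshold (-0.99, -0.87 and -0.67) and Cyr61 passed (-1.14). In grafted rats without running the 14 DPI Tnc values of 44.4, 92.7, 101 and 103 TPM lay below all 8 values of 7 DPI (161 to 356 TPM). In that step 1 of 9 members passed, Tnc by -1.56 ± 0.38 (adjusted p = 2e-04), a share near the 9.77% of all genes that fell, and Cthrc1, Thbs1 and Thbs2, at -0.98 to -0.995, just missed the log2 threshold.

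Between 14 and 28 DPI 7 of 9 members fell in running rats, with 3.14% of all genes lower. Tnc fell by 2.79 ± 0.38, Cthrc1 by 2.31 ± 0.35, Postn by 1.91 ± 0.41, Thbs2 by 1.78 ± 0.32, Thbs1 by 1.21 ± 0.32, Cyr61 by 1.20 ± 0.29 and Sparc by 1.01 ± 0.26 (adjusted p at most 0.00145). Thbs4 and Ctgf did not pass. Sparc was not called with size factors (-0.82), with the libraries of few detected symbols kept (adjusted p = 0.104), or without any 1 of 7 muscles (-0.90 to -0.99). In grafted rats without running Tnc fell by 2.96 ± 0.43, Cthrc1 by 2.31 ± 0.40, Postn by 2.14 ± 0.47 and Thbs2 by 1.61 ± 0.37 (adjusted p at most 0.00214), with 1.11% of genes lower. Fitted on those 8 muscles alone, none of the 4 passed (adjusted p 0.0572 to 0.132). Without replicate 1 of the 28 DPI group Postn differed by -1.39 and Thbs2 by -1.30, and neither was called (adjusted p = 0.110 and 0.0591). Postn was also not called with the libraries of few detected symbols kept. All 28 DPI rats carry numbers in a range that no other day shares, so the last step and that range cannot be told apart. In unrepaired rats without running the same genes stand as a description: Tnc and Cthrc1 differed by -1.99 and -1.98 and Thbs4 and Ctgf differed by -0.21 and 0.13.

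No member passed the rule with the graft at any day. The question was whether minced muscle laid in the defect altered the fibrotic matrix response. With and without running 0 of 9 members were called in each of the 8 contrasts by limma. The share of all genes called was 0.00883%, 0.0883%, 0.0265% and 0% at 3, 7, 14 and 28 DPI without running and 0%, 0%, 0.0177% and 0.0177% with it. Without running 2 of 36 values had an unadjusted p under 0.05, and with running 3 of 36. Tenascin C at 14 DPI had the largest difference in each running arm. Without running it was at 36.4, 36.6, 38.1 and 53.1 TPM in unrepaired and 44.4, 92.7, 101 and 103 TPM in grafted muscle. The groups overlapped in 1 grafted muscle, and the difference was 0.98 ± 0.43 with a 95% interval of 0.13 to 1.83 (adjusted p = 0.73).

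In running rats at 14 DPI Tnc was at 5.05, 34.4, 48.1 and 56.7 TPM unrepaired and 28.6, 58.3, 76.5 and 190 TPM grafted. The difference was 1.36 ± 0.43 (interval 0.50 to 2.21) at an unadjusted p of 0.00247 and an adjusted p of 1. At 28 DPI the running rats pointed the other way, at -1.002, with 8.02 and 8.23 TPM unrepaired against 3.04 and 4.14 TPM grafted. Postn at 14 DPI was 0.68 and 0.94 higher with the graft without and with running, and Thbs1 at 7 DPI without running was 0.65 ± 0.26 higher (adjusted p = 0.0921). The intervals of many members reach past 1, so these group sizes do not settle whether differences of that size exist. The difference of the graft between rats with and without running was called for 0 of 9 members at each day by limma (0.00883%, 0%, 0% and 0.00883% of all genes). The 36 values had 0 at an unadjusted p under 0.05 and a lowest adjusted p of 0.851.

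**Figure D4:**
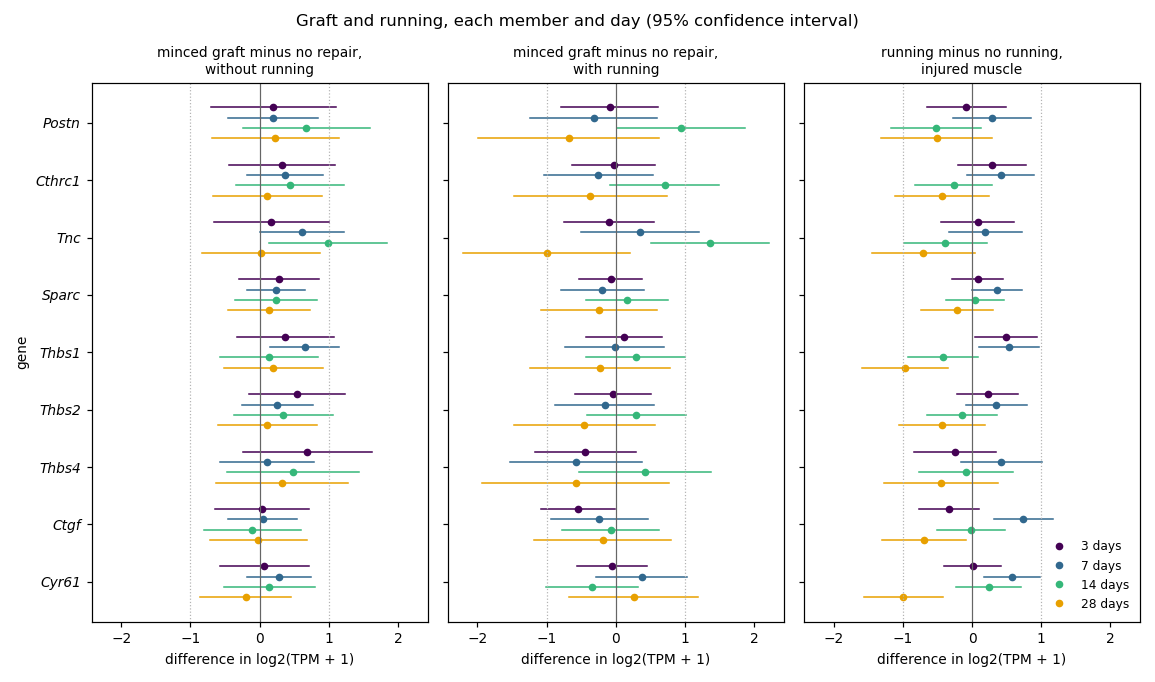
Difference in log2(TPM + 1) for each gene and day, with its 95% confidence interval: minced graft minus no repair without running, the same with running, and running minus no running over both repair arms. Dotted lines mark differences of 1 in each direction; none of the plotted values passed the rule, and the highest is Tnc at 14 DPI in running rats, at 1.36.

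Nor did any member pass the rule with running in injured muscle, with 0 of 9 called by limma at 3, 7, 14 and 28 DPI and 7 of 36 values at an unadjusted p under 0.05. The share of all genes called was 0.0177% at 3 DPI, 0 at 7 and 14 DPI and 0.309% at 28 DPI. At 7 DPI Ctgf was at a mean of 110 TPM with and 63.0 TPM without running (0.74 ± 0.22, adjusted p = 0.177). The highest injured muscle of that day, an unrepaired running one, held 214 TPM of Ctgf and raised the running mean. At 28 DPI Cyr61 was at 11.6 against 25.6 TPM (-0.996 ± 0.29, adjusted p = 0.0551) and Thbs1 at 7.00 against 16.1 TPM (-0.97 ± 0.32, adjusted p = 0.102). The 4 running rats held 9.01, 12.1, 12.2 and 13.3 TPM of Cyr61, all below the 8 rats without running at 15.1 to 46.6 TPM. The number called at 28 DPI was 2 without replicate 1 of the grafted rats that did not run and 1 without replicate 3 or 4 of that group. Another 8 libraries of running rats at 28 DPI, with conflicting labels, are not in these values.

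In the opposite leg at 3 DPI without running, 7 of 9 members met the rule as higher than in control muscle, where 7.09% of all tested genes did. The 4 control muscles also served in choosing the members, so these values are a description without a test and nothing is read from the count. The median difference over all tested genes was 0.44, and 0.02 with size factors. The difference was 2.51 ± 0.47 for Postn, 2.03 ± 0.49 for Thbs4, 1.39 ± 0.37 for Thbs2, 1.38 ± 0.30 for Sparc, 1.11 ± 0.43 for Tnc, 1.09 ± 0.36 for Thbs1 and 1.00 ± 0.36 for Ctgf. Postn was at 11.1, 15.1, 23.1 and 25.8 TPM there, all above the controls at 1.60 to 3.55 TPM, and Thbs4 at 12.1, 15.4, 27.9 and 38.4 TPM, above 2.51 to 8.58 TPM. With size factors 4 of 9 met the rule, and the count was also 4 without control replicate 4, grafted contralateral replicate 2 or unrepaired contralateral replicate 1. With the 2 legs of each control rat averaged, Ctgf (0.93) and Tnc (1.11) did not meet it, which left 5. With the rat as a block Ctgf, at 0.996, did not, which left 6.

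At 7 and 14 DPI 1 member met the rule as higher and 1 as lower, again as a description. Postn was at a mean of 10.9 TPM at 7 DPI and 9.75 TPM at 14 DPI against 2.38 TPM in controls. The differences were 1.80 ± 0.40 and 1.65 ± 0.47, where 0.900% and 0.953% of all genes were higher. Cyr61 was at a mean of 8.70 and 7.89 TPM against 18.9 TPM, a difference of -1.07 ± 0.28 and -1.07 ± 0.34, with 0.141% and 0.0794% of all genes lower. The lowest control, at 7.93 TPM, lay among the contralateral values, and at 14 DPI the count was 0 or 1 without any 1 of 8 muscles. At 7 DPI Cyr61 missed the rule by its adjusted p with the legs of each control rat averaged (-1.15). It also missed it without control replicate 2 (-0.89) or 3 (-0.98), or without unrepaired contralateral replicate 3 or 4 (-0.98 each). At 28 DPI 0 of 9 met the rule by limma, with 1 at an unadjusted p under 0.05, where 0.512% of all genes were called.

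**Figure D5:**
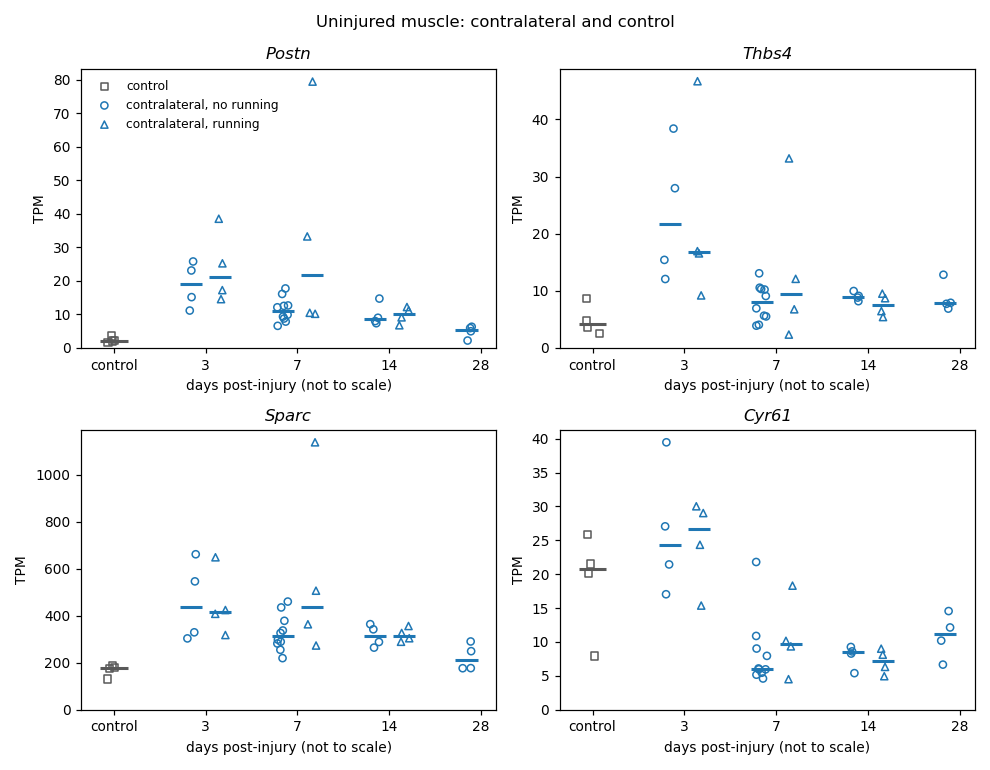
TPM of Postn, Thbs4, Sparc and Cyr61 in uninjured muscle: 4 control muscles (squares) and contralateral muscles of rats without running (circles) and with running (triangles), by days post injury, with bars at medians. Postn, Thbs4 and Sparc at 3 DPI lie above every control muscle, the median of Cyr61 is higher at 3 DPI than at later days, and 1 running rat at 7 DPI lies far above its group for Postn, Sparc and Thbs4.

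A comparison of days within the operated rats, chosen after the data were seen, does not use the controls. It was prompted by the values above, in muscle that is part of the uninjured muscle behind the choice of members, so these values too are a description without a test. Cyr61 at 3 DPI was at 17.0, 21.5, 27.1 and 39.5 TPM in contralateral muscle of rats without running and between 4.61 and 21.8 TPM in the 10 muscles of 7 DPI. It differed at 3 DPI by 1.57 ± 0.28 from 7 DPI and by 1.18 ± 0.34 from 28 DPI without running. Postn differed more from 28 DPI, by 1.76, and was the 1 member that met the rule there with size factors (1.44). With running the difference of Cyr61 was 1.24 ± 0.34 from 7 DPI and 1.65 ± 0.34 from 14 DPI. Of all genes, 2.52%, 1.71%, 2.07% and 4.17% met the rule as higher in the order of the contrasts given, and nothing is read from the members' counts of 3, 3, 1 and 4. Single muscles moved Cyr61: with running it was 0.79 above 7 DPI without unrepaired replicate 2 of that day, and without running 0.89 above 28 DPI without unrepaired replicate 2 of 3 DPI. Thbs4 differed by 1.21 to 1.39 in 3 of these contrasts. Against 14 DPI with running Postn stood 1.14 and Thbs2 1.00 higher, and without unrepaired replicate 2 of 3 DPI they were at 0.80 and 0.64. With size factors 1 member met the rule in 3 contrasts and 0 in the other, 7 DPI with running, and Cyr61 itself was at 0.81 to 1.24. The contralateral muscles of 3 DPI share no range of rat numbers with those of 14 or 28 DPI, so against these days the step and the range cannot be told apart. With the range as a covariate Cyr61 was the 1 member that met the rule against 7 DPI without running and against 14 DPI with running.

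Markers of other cells moved with the contralateral difference at 3 DPI. All 8 fibroblast markers, 4 of 5 tendon markers (Chad, Tnmd, Fmod, Cilp), 7 of 8 leukocyte markers and 3 of 4 neutrophil markers were called higher there than in control. Their sums over all 8 contralateral muscles were 674 to 1728, 77.5 to 246, 89.9 to 236 and 8.56 to 158 TPM against 87.7 to 263, 29.4 to 45.0, 20.7 to 43.0 and 1.10 to 5.60 TPM. The fast fiber sum was 73782 to 112170.0 TPM there against 111870.0 to 152466 TPM in controls. The part of these markers in the members' difference was not tested. At 7 DPI 1 contralateral muscle of a grafted running rat stood apart, with Postn at 79.4, Sparc at 1138, Thbs4 at 33.2 and Ctgf at 34.9 TPM and a fibroblast sum of 2574 TPM. Running against no running in contralateral muscle, again a description, gave 0 of 9 members that met the rule at 3, 7 and 14 DPI by limma (3 of 27 at an unadjusted p under 0.05; 0.265%, 0.00883% and 0% of all genes called). Postn at 7 DPI, 1.08 ± 0.40 higher, was 0.38 higher without that muscle. Without the other muscle of its group, replicate 2, 3 members met the rule.

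Relatives of the members moved in the same contrast with control. Of 18 other matricellular and CCN genes listed, 14 were in the table and 11 passed the filter. Of these, 8 were called higher in unrepaired muscle without running at 3 DPI and 9 at each later day, with a median log2 difference of 2.17, 3.38, 3.08 and 2.60. Spp1 (osteopontin, a macrophage and matrix cytokine) differed by 10.42 at 3 DPI and 3.25 at 28 DPI, and Tnn (tenascin N) by 6.96 at 7 DPI and 1.89 at 28 DPI. Nov (Ccn3), the other CCN member that passed, was at 1.86 at 3 DPI and 3.38, 3.84 and 3.39 later. With the graft at 7 DPI Spp1 was higher by 2.22 ± 0.46 without running (adjusted p = 0.00121) and by 1.65 ± 0.64 with running (adjusted p = 0.617).

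Of 11 tested receptors, 8 were called higher at 3 and 7 DPI and 5 at 14 and 28 DPI. Lrp1, an endocytic receptor of thrombospondins and Ctgf, was at 3.79 at 3 DPI and 2.31 at 28 DPI. Among 16 tested YAP and TEAD target genes other than the CCN pair, 13, 13, 12 and 10 were called higher at 3, 7, 14 and 28 DPI. Ankrd1, a stretch-responsive muscle gene, differed by 7.33, 7.78, 6.40 and 6.34, and Gadd45a, a stress-response gene, by 4.68, 4.82, 3.34 and 3.40. The background shares for these 4 contrasts are those given above, and the lists' medians of 1.34 to 2.41 (YAP and TEAD targets) stand beside 0.52 to 0.96 over all tested genes.

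The genes also varied together in different measure. Over the 16 injured group means Pearson's r was 0.985 for Cthrc1 with Tnc and for Tnc with Thbs2, 0.949 for Thbs1 with Cyr61, 0.933 for Postn with Thbs4 and 0.856 for Ctgf with Cyr61. It was lowest at -0.12 for Thbs1 with Thbs4. Over deviations of 76 injured muscles from their own group mean, where day and arm are removed, r was 0.915 for Sparc with Thbs2, 0.909 for Postn with Cthrc1 and 0.903 for Cthrc1 with Thbs2. It was 0.35 for Thbs1 with Cyr61 and 0.09 for Tnc with Cyr61. These are descriptions over points that share days, and genes of 1 muscle share a library and its scaling. The r of Thbs1 with Cyr61 was thus high over group means and low over muscles of a group.

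The genes outside the list whose 31 group means were most like a member's, by Pearson's r of log2(TPM + 1), were Mfap4 for Postn (0.997), Srpx2 for Cthrc1 (0.998), Sorcs2 for Tnc (0.994), C1qtnf6 for Sparc (0.997), Rgl1 for Thbs1 (0.992), Col16a1 for Thbs2 (0.998), Evc for Thbs4 (0.983), Cyb5r3 for Ctgf (0.978) and Impdh2 for Cyr61 (0.961). Those r values are description only, since the injured groups dominate the range. Cyr61 had the lowest best match, and its next 2 were Pes1 (0.960) and Pomt1 (0.959).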

How the data were processed

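The deposited table holds TPM values per gene symbol, which the authors made with kallisto at its default settings on an annotated rat genome of build 6.0. The version is not given in the sources used here, and no read counts were used because none are in the table. Total RNA had been made into TruSeq libraries and sequenced as 76 bp paired ends. TPM is a share of a library, so a fall in abundant fiber transcripts raises the rest.

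Libraries of a muscle were averaged on the TPM scale, and libraries with fewer than 7000 symbols above 1 TPM were left out, which removed 2 of 116 muscles and left 114 muscles of 78 rats in 31 groups. Groups came from the sample labels, and 9 of 138 libraries with conflicting labels were not placed. Genes with a mean above 1 TPM in at least 1 group (11328) were fitted together as log2(TPM + 1) in limma 3.58.1 (R 4.3.3, statmod 1.5.0), with trended empirical Bayes variances and 83 residual degrees of freedom. A gene was called at a Benjamini-Hochberg adjusted p under 0.05 and an absolute log2 difference above 1. Repair arms were weighted equally where joined. The p-values measure the spread between muscles of separate rats, apart from the control muscles. Tables were made in Python 3.11.15 with pandas 2.3.3 and numpy 2.4.6 and plots with matplotlib 3.10.9, and the fit was tested on simulated data.

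The members and lists were chosen with earlier results of these data known. The text names the 9 members, from each list up to 4 genes with the largest difference in a contrast, and for each member the genes with the highest correlation of group means. Rats with 2 muscles (36) pair samples by animal, and the within-rat correlation was 0.0260. The alternatives were a pseudocount of 0.1, size factors, no filter, adjusted p alone, low-complexity libraries kept, each library as a sample, a fit restricted to the muscles compared, the legs of each control rat averaged, the rat as a block, the rat number range as a covariate, and leaving out each muscle in groups of 2 to 5.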

Additional observations from a re-analysis of the deposited data

Results flagged for a closer look

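In groups of 4 to 10 muscles, 10 combinations of gene and group held a muscle far from the others by Dixon's ratio. That was 6.94% of the combinations examined, and chance gives about 1 of 20. Tnc gave 4 of them: 94.3 TPM as the highest of 6 grafted running muscles at 3 DPI, 124 TPM as the lowest unrepaired running muscle at 7 DPI, and at 14 DPI without running 44.4 TPM as the lowest grafted and 53.1 TPM as the highest unrepaired muscle. The last 2 bear on the Tnc difference with the graft. Thbs4 gave 3: 3.88 TPM as the lowest contralateral muscle of unrepaired rats without running at 7 DPI, 251 TPM as the highest grafted muscle without running at 14 DPI, and 70.9 TPM as the lowest unrepaired muscle without running at 28 DPI. The same grafted rat that held the high Thbs4 at 14 DPI had Sparc at 3952 TPM, the highest of its group. The other 2 were Ctgf at 90.3 TPM, the highest unrepaired running muscle at 14 DPI, and Thbs1 at 26.8 TPM, the highest unrepaired muscle without running at 28 DPI.

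Outside the comparisons, 8 libraries of running rats at 28 DPI have titles and labels that name opposite muscles. These 8 fall into sets of unlike values, described below, which the following counts join. The number above the highest control muscle was 6 for Postn, 6 for Cthrc1, 5 for Tnc, 6 for Sparc, 4 for Thbs1, 8 for Thbs2, 5 for Thbs4, 4 for Ctgf and 0 for Cyr61.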

How the results depend on the processing

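No member that was called changed sign under any alternative. Apart from leaving out muscles, 422 of 455 counts of members called stayed within 1.5 times the main count. Of 2088 member differences 89 were then no longer called and 46 became called. When each muscle was left out, 317 of 358 counts stayed so, and of 1574 member differences 88 lost and 38 gained a call. With the rat as a replicate block all 51 counts kept within 1.5 times, and 1 of 235 member differences lost its call, Ctgf in contralateral muscle at 3 DPI (0.996), where 6 rather than 7 members were called. Contralateral against control, the 7 called at 3 DPI were 4 with size factors or with low-complexity libraries kept. The 2 at 7 DPI were 1 with controls averaged per rat or low-complexity libraries kept and 4 with a pseudocount of 0.1. The 2 at 14 DPI were 1 with the compared groups alone or no filter, 0 with controls averaged or low-complexity libraries kept, and 4 with the pseudocount. In grafted rats without running, adjusted p alone gave 8 rather than 4 from 3 to 7 DPI and 6 rather than 1 from 7 to 14 DPI, where the pseudocount gave 3 and the rat number range 2. Their 4 from 14 to 28 DPI were 0 with the compared groups alone. The 7 of running rats from 7 to 14 DPI were 4 with size factors or low-complexity libraries kept. In unrepaired rats without running the 3 of that step were 1 under both, and the 4 from 14 to 28 DPI were 2 with low-complexity libraries kept. For contralateral 3 DPI against 7 DPI without running (3), adjusted p alone and the pseudocount gave 6, and the rat number range and size factors 1. Against 28 DPI (3) these were 6 with adjusted p alone, 7 with the pseudocount, 1 with size factors and 0 with low-complexity libraries kept. With running, the 1 against 7 DPI was 0, and the 4 against 14 DPI were 0, with low-complexity libraries kept, and size factors gave 0 and 1, with 1 for the rat number range. Leaving out each muscle gave 4 to 7, 1 to 2 and 0 to 1 members for contralateral against control at 3, 7 and 14 DPI. It gave 1 to 4 and 2 to 4 for the steps after 7 DPI in grafted rats, 0 to 4 for 14 to 28 DPI in unrepaired rats, and 0 to 2 for running in injured muscle at 28 DPI. It gave 0 to 3 for running in contralateral muscle at 7 DPI, 2 to 6 for each contralateral contrast of days without running, and 0 to 2 and 1 to 5 for those with running. The causes of these moves were not tested. The rat number range could be fitted in 39 of 51 contrasts. Depth per library is not in the table, and the averages given in the labels and the methods differ, so no counting limit is given near 0 TPM.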

Other observations

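The 8 libraries of running rats at 28 DPI whose title and label name opposite muscles fell into 2 separate sets of values. The 4 titled injured held Postn at 4.69, 3.56, 1.88 and 3.00 TPM and Tnc at 0.41, 0.19, 0.35 and 0.19 TPM, and the 4 titled contralateral held Postn at 110, 154, 112 and 323 TPM and Tnc at 2.54, 5.18, 2.36 and 7.17 TPM. Thbs2 was between 0.84 and 0.91 TPM in the first set and at 7.52, 10.1, 6.57 and 18.2 TPM in the second. Cyr61 was closest between them, at 5.58 to 9.69 TPM against 8.58 to 15.9 TPM. Among the placed muscles of 28 DPI, contralateral ones held Postn at 2.18 to 6.29 TPM and injured ones at 61.8 to 702 TPM. In Postn each set was thus near the muscle opposite to its title. Another contralateral library, labelled with both 3 and 7 days, held Postn at 25.3 TPM, Thbs2 at 3.00 TPM and Cyr61 at 4.27 TPM.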
